A study of Mus musculus with 5 samples.

Results

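The mouse genome holds a large family of genes for potassium channel subunits, named with the symbol Kcn, and their chromatin was examined here in embryonic stem cells that have or lack the DEAD-box RNA helicase DDX5. Members were set by name, with earlier results of these data known. The rule took protein-coding RefSeq genes whose symbol starts with Kcn, with Kcnq1 left out. It gave 93 members among 21627 protein-coding genes on the autosomes and the X chromosome. The members were divided by symbol into 39 voltage-gated subunits, 15 inward rectifiers, 14 two-pore domain channels and 17 auxiliary or regulatory subunits. The remaining 8 form the class of calcium- or sodium-activated channels, a grouping by name and not by what opens each channel. A gene was counted as marked, or as bound, when a peak shared at least 1 bp with the gene or with the 2 kb on either side of it.

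The peaks come from chromatin immunoprecipitation and sequencing (ChIP-seq) of the embryonic stem cell line MPI-II. H2AK119ub was profiled in DDX5-/- cells and in wild-type cells, and RYBP in wild-type cells only, with an antibody to DEDAF, another name of RYBP. The DDX5-/- line was a single clone, made by transfection of a Cas9 nickase with paired guides against exon 2 of Ddx5 and selection with G418. Both genotypes were grown on feeder cells in fetal bovine serum with LIF, the MEK inhibitor PD0325901 and the GSK3 inhibitor CH99021. With 1 library for each of the 3 profiles, differences could not be set against a spread between replicates, and p-values were not computed. The inputs were not analysed here.

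H2AK119ub is a single ubiquitin on histone H2A, placed by Polycomb repressive complex 1, and is known at developmental genes that stem cells keep silent. RYBP belongs to the variant forms of that complex, which are recruited largely to CpG islands. Potassium channels set the resting potential of a cell and end its action potentials, and most of the family is known for roles in neurons, muscle, secretory cells and transporting epithelia.

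The peak lists hold positions only, so read depth is unknown. Over the whole genome the DDX5-/- H2AK119ub list held 20994 peaks with a median width of 1083 bp, and the wild-type list 24235 peaks with a median width of 1360 bp. The RYBP list held 9564 peaks. Of 8 marker genes of embryonic stem cells, 1, Esrrb, carried H2AK119ub in DDX5-/- cells and the same gene in wild-type cells. Of 8 marker genes of fibroblasts, a usual feeder cell, 3 did in each. Peaks do not measure expression, so these counts do not check the cell type, and the part of feeder chromatin in the results was not tested. The intervals below are 95% Wilson intervals, which cover counting error only and treat genes as independent.

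Potassium channel promoters differed in which peaks lay over them, and 8 that show the combinations are printed first, as the 250 bases before and the 50 bases from an annotated start on (RefSeq, GRCm38.p6). Every CG dinucleotide is in capitals, since CpG islands are the usual landing sites of variant Polycomb complexes. Kcnj4 (chr15:79505192-79505491, minus strand) and Kcnk12 (chr17:87797945-87798244, minus strand) had all 3 kinds of peak over the promoter. Kcnh5 (chr12:75177283-75177582, minus strand) had RYBP and DDX5-/- H2AK119ub. Kcna3 (chr3:107035912-107036211, plus strand) and Kcnj2 (chr11:111065914-111066213, plus strand) had RYBP alone over these bases. Kcnn3 (chr3:89519914-89520213, plus strand) had H2AK119ub of both genotypes and no RYBP over them. Kcnab2 is shown at 2 of its starts, an upstream one with RYBP alone (chr4:152477500-152477799, minus strand) and an inner one with wild-type H2AK119ub alone (chr4:152452896-152453195, minus strand).
Kcnh5: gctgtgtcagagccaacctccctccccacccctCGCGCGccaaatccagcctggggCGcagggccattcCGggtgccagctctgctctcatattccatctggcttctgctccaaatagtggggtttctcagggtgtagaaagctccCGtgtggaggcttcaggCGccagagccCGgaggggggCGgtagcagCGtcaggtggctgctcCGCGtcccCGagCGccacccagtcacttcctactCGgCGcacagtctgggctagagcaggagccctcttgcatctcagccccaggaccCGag
Kcna3: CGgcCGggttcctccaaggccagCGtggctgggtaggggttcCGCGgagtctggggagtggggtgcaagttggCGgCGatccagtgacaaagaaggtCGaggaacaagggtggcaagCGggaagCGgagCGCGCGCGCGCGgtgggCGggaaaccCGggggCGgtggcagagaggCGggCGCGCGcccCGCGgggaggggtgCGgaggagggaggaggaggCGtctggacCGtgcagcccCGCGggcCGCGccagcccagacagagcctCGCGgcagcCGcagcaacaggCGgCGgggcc
Kcnn3: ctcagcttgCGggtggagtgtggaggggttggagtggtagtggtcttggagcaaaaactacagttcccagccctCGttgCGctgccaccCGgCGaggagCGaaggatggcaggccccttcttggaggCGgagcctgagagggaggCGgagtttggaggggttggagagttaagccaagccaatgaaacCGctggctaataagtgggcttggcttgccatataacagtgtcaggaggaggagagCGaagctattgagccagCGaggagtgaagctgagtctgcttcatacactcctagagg
Kcnj4: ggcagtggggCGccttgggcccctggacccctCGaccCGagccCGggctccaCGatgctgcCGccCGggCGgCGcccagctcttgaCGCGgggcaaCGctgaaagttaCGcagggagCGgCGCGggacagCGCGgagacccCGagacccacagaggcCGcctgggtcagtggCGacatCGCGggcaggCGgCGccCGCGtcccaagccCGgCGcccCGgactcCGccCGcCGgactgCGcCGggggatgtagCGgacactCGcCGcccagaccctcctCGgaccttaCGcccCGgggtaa
Kcnj2: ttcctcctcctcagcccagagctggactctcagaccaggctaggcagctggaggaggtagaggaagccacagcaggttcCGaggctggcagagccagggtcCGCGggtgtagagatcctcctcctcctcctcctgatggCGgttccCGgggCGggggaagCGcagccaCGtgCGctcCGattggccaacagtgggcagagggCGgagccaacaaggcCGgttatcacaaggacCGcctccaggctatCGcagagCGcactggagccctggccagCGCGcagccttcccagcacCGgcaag
Kcnk12: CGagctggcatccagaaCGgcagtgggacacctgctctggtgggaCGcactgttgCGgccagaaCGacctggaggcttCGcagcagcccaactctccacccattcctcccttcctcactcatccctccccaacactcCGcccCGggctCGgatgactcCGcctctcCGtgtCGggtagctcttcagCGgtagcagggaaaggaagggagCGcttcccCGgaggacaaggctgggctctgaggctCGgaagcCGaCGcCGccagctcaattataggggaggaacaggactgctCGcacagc
Kcnab2 upstream start: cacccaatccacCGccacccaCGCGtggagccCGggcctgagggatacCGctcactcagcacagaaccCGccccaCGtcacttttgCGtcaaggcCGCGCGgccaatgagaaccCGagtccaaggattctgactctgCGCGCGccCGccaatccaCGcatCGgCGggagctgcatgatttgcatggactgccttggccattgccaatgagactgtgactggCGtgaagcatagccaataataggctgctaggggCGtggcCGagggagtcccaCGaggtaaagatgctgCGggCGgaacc
Kcnab2 inner start: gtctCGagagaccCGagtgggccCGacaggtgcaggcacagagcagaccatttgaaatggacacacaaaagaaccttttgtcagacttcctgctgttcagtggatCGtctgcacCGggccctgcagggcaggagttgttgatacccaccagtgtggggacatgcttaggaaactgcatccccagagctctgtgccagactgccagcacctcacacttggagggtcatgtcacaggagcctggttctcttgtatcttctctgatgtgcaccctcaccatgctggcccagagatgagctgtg

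The printed promoters differ in CG content, from 41 CG in Kcnj4 and 37 in Kcna3 to 11 in Kcnn3 and 5 at the inner start of Kcnab2. The upstream start of Kcnab2, with RYBP, held 25. Kcnk12 held 20, Kcnj2 18 and Kcnh5 17.

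H2AK119ub was frequent over potassium channel genes in both genotypes. It lay over 62 of the 93 genes in DDX5-/- cells, 66.7% (56.6% to 75.4%), and over 61 in wild-type cells, 65.6% (55.5% to 74.5%). Over all protein-coding genes the shares were 23.6% in DDX5-/- cells and 27.9% in wild-type cells. The mark was present in both genotypes at 56 members, 60.2% (50.1% to 69.6%), against 20.7% of all genes. It was present in DDX5-/- cells alone at 6 members, 6.45% (2.99% to 13.4%), against 3% of all genes, and in wild-type cells alone at 5 members, 5.38% (2.32% to 12.0%), against 7.2%. The intervals of the last 2 shares include the shares of all genes. With peaks of at least 1 kb, Kcnmb4 was the 1 of the 6 still marked in DDX5-/- cells alone, and when the H2AK119ub lists were cut to the same number of widest peaks, Kcna3 and Kcnv2 were the 2 of the 5 still marked in wild-type cells alone.

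Of the 61 members marked in wild-type cells, 56 were also marked in DDX5-/- cells, 91.8% (82.2% to 96.4%), against 74.1% of all genes marked in wild-type cells. The share was higher where the wild-type mark covered more of the gene. With 5 kb or more of wild-type mark, 36 of 36 members were marked in DDX5-/- cells, beside 97.9% of all such genes. With 2 to 5 kb, 13 of 14 were, beside 80.2%, and with under 2 kb, 7 of 11 were, beside 940 of 2088 such genes.

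RYBP lay over 66 of the 93 members in wild-type cells, 71.0% (61.1% to 79.2%), against 37.6% of all genes. It was present at 51 of the 56 members marked in both genotypes, 91.1% (80.7% to 96.1%), against 76.1% of all genes marked in both. The 5 without RYBP were Kcna5, Kcne1, Kcnj5, Kcnk16 and Kcnk2. RYBP without H2AK119ub in either genotype was seen at 9 members, 9.68% (5.18% to 17.4%), against 16.4% of all genes. A further 17 members had no peak of any kind, a count that was not made over all genes.

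**Figure D1:**
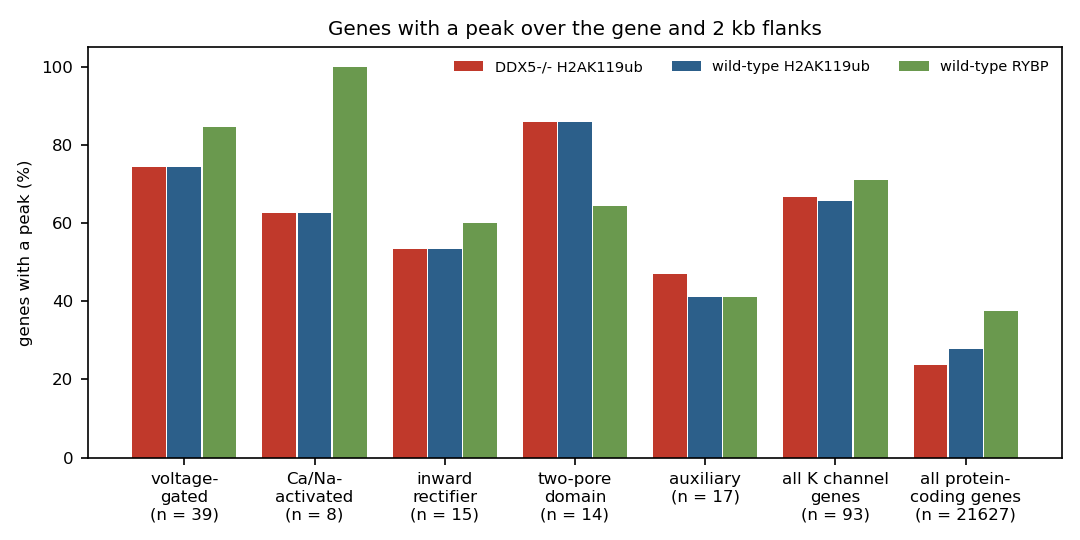
Share of genes with a peak over the gene and 2 kb flanks (vertical axis, percent) in DDX5-/- H2AK119ub, wild-type H2AK119ub and wild-type RYBP, for each channel class, for all 93 potassium channel genes and for all 21627 protein-coding genes, 1 library per profile. The 2 H2AK119ub bars are equal in 4 of the 5 classes, and RYBP reaches all 8 genes of the calcium- or sodium-activated class.

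Gene length bears on these counts, since a longer gene gives a longer window. Potassium channel genes had a median length of 32507 bp, against 17330 bp for all genes. Among genes under 10 kb, 14 of 21 members were marked in DDX5-/- cells, 66.7%, and 17 in wild-type cells, 81.0%, beside 19.7% and 24.7% of all genes of that length. From 10 to 50 kb the members' shares were 65.7% in both genotypes, beside 23.3% of all genes in DDX5-/- cells and 28.1% in wild-type cells. From 50 to 200 kb they were 85.0% in DDX5-/- cells and 80.0% in wild-type cells, beside 27.3% and 29.9%. Among genes of 200 kb or more, 8 of 17 members were marked in DDX5-/- cells, 47.1%, and 5 in wild-type cells, 29.4%, beside 43.0% and 42.6% of all such genes. In this longest class the members' share was thus close to that of all genes in DDX5-/- cells and lower in wild-type cells. It rests on 17 members and no interval was computed, so a shortfall in wild-type cells cannot be read from it. Some of the longest members, such as Kcnip4, Kcnma1, Kcnq5 and Kcnd2, carried little or no mark. For RYBP the members' shares were 61.9%, 62.9%, 90% and 76.5% from the shortest to the longest class. Beside them, the shares of all genes rose with length, from 25.9% through 38.0% and 52.1% to 68.1%. In the longest class the RYBP share of members was thus near that of all genes.

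Voltage-gated subunits form the pores that open on depolarisation, and 29 of 39 were marked in DDX5-/- cells and 29 in wild-type cells, 26 of them in both. RYBP was present at 33. The summed covered length was 209754 bp in DDX5-/- cells and 269864 bp in wild-type cells, a ratio of 0.78. Kcnc1, a channel of fast-spiking neurons (gene ID 16502, chromosome 7, 46396219 to 46438706), had 13010 bp in 9 peaks in DDX5-/- cells and 24746 bp in 13 peaks in wild-type cells. Its start lay inside 1 wild-type peak of 6873 bp. In DDX5-/- cells a peak of 2425 bp ended 91 bp before that start and a peak of 4013 bp began 311 bp after it, with 2859 bp of RYBP over the start. The loss of covered length at Kcnc1 was thus mostly inside the gene and not at its start.

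Kcng2, a silent subunit that works only together with other pore subunits, had 14370 bp in DDX5-/- cells and 26665 bp in wild-type cells, with 5696 bp of RYBP. Its relative Kcng4 (chromosome 8, 119623854 to 119635680) lay in the widest wild-type peak of the family, 17606 bp, which covered its whole window. In DDX5-/- cells 3 peaks of 2117, 7742 and 7863 bp covered 14872 of the 15827 bp of the same window. Peaks of chromosome 8 were wide in general, with medians of 1443 bp in DDX5-/- cells and 1802.5 bp in wild-type cells. Kcnh3, a brain member of the ether-a-go-go group on chromosome 15, had its widest peak at 8816 bp in DDX5-/- cells and 10053 bp in wild-type cells, with 95.3% of the wild-type covered length kept. At Kcng4 and Kcnh3 the covered lengths of the genotypes thus lay close together, with DDX5-/- over wild-type ratios of 0.94 and 0.95.

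Several Shaker-type genes lie in clusters, and on chromosome 3 neighbours differed in state. There, Kcna3, the main potassium channel of T lymphocytes, had 0 bp in DDX5-/- cells and 2246 bp in wild-type cells. Kcna2, its neighbour, had 4085 bp in DDX5-/- cells and 3482 bp in wild-type cells, and Kcna10 had no peak in any library. At Kcna3 the wild-type mark consisted of a peak of 859 bp that ended 296 bp before the start and a peak of 1387 bp that began 666 bp after it, and a RYBP peak of 2186 bp spanned the gap. The nearest DDX5-/- peak to these lay 61271 bp away. On chromosome 6, Kcna1 had 7057 bp in DDX5-/- cells and 6256 bp in wild-type cells, with a RYBP peak of 3969 bp that was the second widest of the family. Kcna6 had 13451 bp in 8 peaks in DDX5-/- cells and 10711 bp in 3 peaks in wild-type cells. Kcna5, an atrial channel gene of the same cluster, had 2190 bp in DDX5-/- cells and 2867 bp in wild-type cells, and no RYBP.

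Chromosome 6 as a whole carried more mark in DDX5-/- cells, with 1.28 times the wild-type covered length over its protein-coding genes, against 0.63 elsewhere. The ratio over its 5 members, Kcna1, Kcna5, Kcna6, Kcnd2 and Kcnj8, was 1.10, against 0.70 over the 88 members elsewhere. The gains at Kcna1, Kcna6 and Kcnd2 therefore cannot be told apart from that of their chromosome.

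In this class 3 genes were marked in DDX5-/- cells alone. Kcnh5 (gene ID 238271, chromosome 12, 74897217 to 75177332) had peaks of 528 and 888 bp in DDX5-/- cells, the first over its start and the second 305 bp before it. Kcnh1 (gene ID 16510, chromosome 1, 192189144 to 192510159) had 1 DDX5-/- peak of 927 bp, 380 bp from an annotated start. Kcnq5, a subunit of the M-current of neurons (gene ID 226922, chromosome 1, 21398399 to 21962650), had 1 DDX5-/- peak of 979 bp, 269 bp from a start. All 3 had wild-type RYBP at the start, with 1502 bp at Kcnh5, 1467 bp at Kcnh1 and 2471 bp at Kcnq5. The nearest wild-type H2AK119ub peak was 208618 bp away at Kcnh5, 98738 bp at Kcnh1 and 840555 bp at Kcnq5. All 3 genes are over 200 kb long, and each of their DDX5-/- peaks was narrower than the genome-wide median of that library. None of these 3 calls was left when only peaks of at least 1 kb were counted.

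Wild-type mark without DDX5-/- mark was seen at Kcna3, Kcna4 and Kcnv2 in this class. Kcna4, an A-type channel gene, had a wild-type peak of 709 bp, 254 bp from its start, and a RYBP peak of 832 bp over the start. Kcnv2, a silent subunit gene known for a retinal disease, had a wild-type peak of 1697 bp and no RYBP. Kcnb2, Kcnh8 and Kcnv1 had RYBP alone, and Kcnb2 had 1832 bp of it and Kcnv1 1167 bp. Kcna10, Kcnd1, Kcnh7 and Kcnq3 had no peak in any library.

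Other voltage-gated members marked in both genotypes included Kcna7, Kcnc2, Kcnc4, Kcnd2, Kcnd3, Kcnf1, Kcng1, Kcng3, Kcnh2, Kcnh4, Kcnh6, Kcns1, Kcns2 and Kcns3. Their covered lengths ran from 1272 to 13742 bp in DDX5-/- cells and from 659 to 18830 bp in wild-type cells. Kcnh2, the cardiac channel gene known for long QT syndrome, was at the top of that wild-type range, with 9335 bp in DDX5-/- cells and 18830 bp in wild-type cells. Kcns3 was at the bottom of both ranges, with 1272 bp in DDX5-/- cells and 659 bp in wild-type cells.

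**Figure D2:**
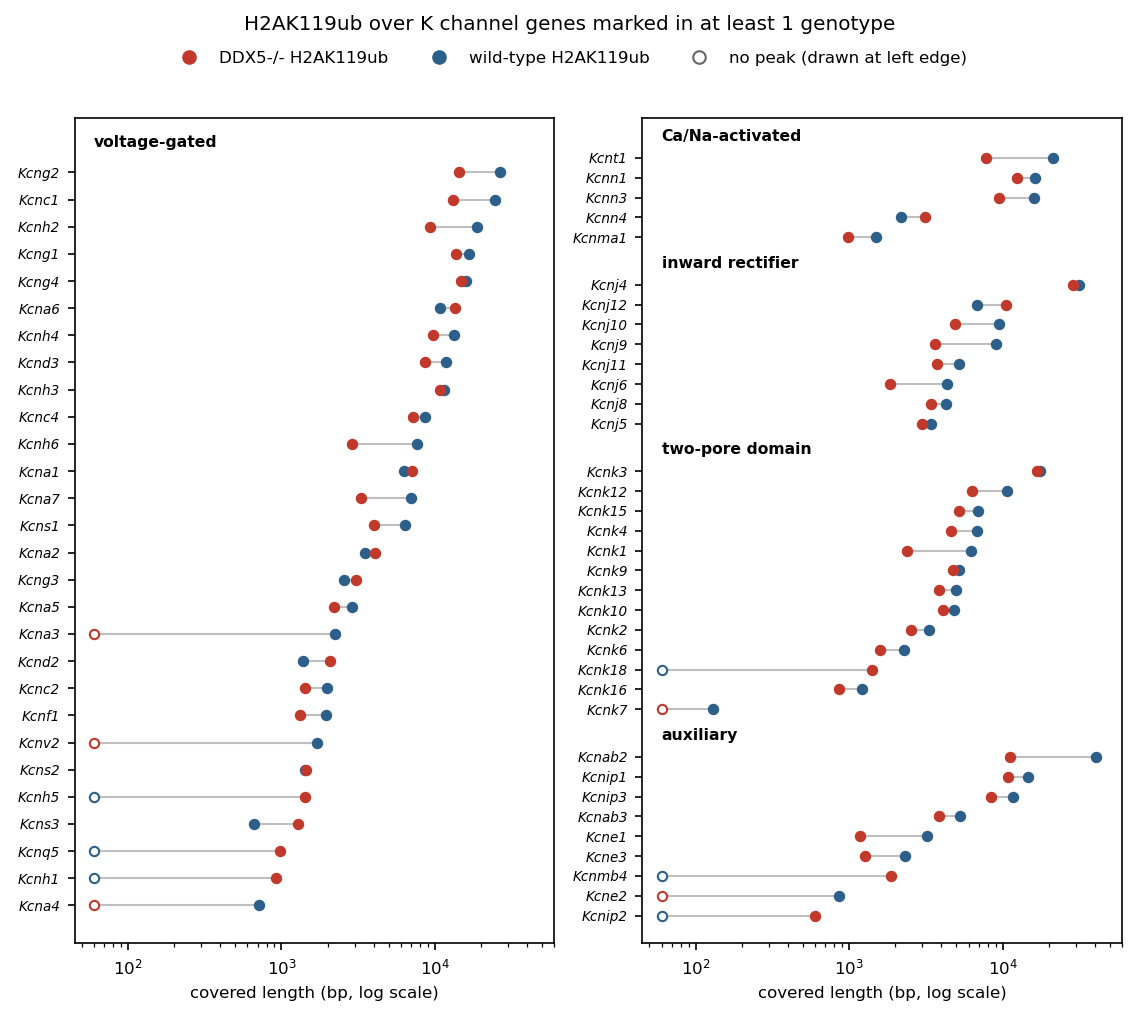
Covered length of H2AK119ub over the gene and 2 kb flanks (horizontal axis, bp, log scale) in DDX5-/- and wild-type cells, for 63 potassium channel genes with a peak in at least 1 genotype, 1 library each. Open points at the left edge stand for no peak. At 43 of the 52 plotted genes marked in both genotypes, the DDX5-/- point lies left of the wild-type point. Of all protein-coding genes marked in both, 78.6% had less covered length in DDX5-/- cells.

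Calcium- and sodium-activated channels link ion entry to repolarisation. All 8 genes placed in this class had RYBP (67.6% to 100%), while 5 were marked in each genotype, the same 5. The share of all genes with RYBP was 37.6%, but genes of this class are long, with a median of 120824 bp. Of all genes of 50 to 200 kb, 52.1% had RYBP, and of those of 200 kb or more, 68.1% did. Kcnt1, the sodium-activated channel gene Slack, had 7831 bp in 7 peaks in DDX5-/- cells and 21418 bp in 14 peaks in wild-type cells. Of its wild-type length 32.0% was kept, and its RYBP peak was 1166 bp wide. Kcnn1, a small-conductance calcium-activated channel gene (chromosome 8, 70843158 to 70865691), had 12469 bp in DDX5-/- cells and 16239 bp in wild-type cells. It also had the widest RYBP peak of the family, 5152 bp, and its 2 listed starts each lay in all 3 kinds of peak. Kcnn3 had 9499 bp in DDX5-/- cells and 15982 bp in wild-type cells, with 22.8% of the wild-type length kept, so most of the mark inside the gene lay in different places in the genotypes. At its start both genotypes had the mark, as the printed promoter shows.

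Kcnn4, the intermediate-conductance channel gene of red blood cells and lymphocytes, had 3138 bp in DDX5-/- cells and 2190 bp in wild-type cells. Kcnma1, the large-conductance channel gene, had 990 bp in DDX5-/- cells and 1505 bp in wild-type cells over a gene of 712823 bp. Kcnn2, Kcnt2 and Kcnu1 had RYBP alone, with 3119 bp at Kcnn2, 1168 bp at Kcnt2 and 1746 bp at Kcnu1. Kcnu1, the sperm channel gene, is in this class by its symbol only.

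Inward rectifiers pass potassium inward more readily than outward and hold the resting potential, and 8 of 15 were marked in each genotype, again the same 8. Kcnj4 (gene ID 16520, chromosome 15, 79480226 to 79512511) was the most covered, with 28609 bp in DDX5-/- cells and 31288 bp in wild-type cells. These lengths make up 78.8% and 86.2% of its window, and the widest DDX5-/- peak of the family, 9189 bp, lay there. Kcnj12, which forms channels of the same strong rectifier group, had 10508 bp in DDX5-/- cells and 6778 bp in wild-type cells, a ratio of 1.55. Within 2 kb of its listed start Kcnj12 went the other way, with 0 bp in DDX5-/- cells and 1531 bp in wild-type cells. Kcnj10, the glial channel gene, had 4899 bp in DDX5-/- cells and 9451 bp in wild-type cells. Its neighbour Kcnj9 had 3633 bp in DDX5-/- cells and 9123 bp in wild-type cells. Kcnj12 was the 1 inward rectifier with more covered length in DDX5-/- cells, and 7 had less.

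Kcnj8 and Kcnj11, the pore subunits of the ATP-sensitive channels, had ratios of 0.80 and 0.72. Kcnj5 had 0.88 and Kcnj6 0.42. Kcnj2, a main resting conductance of muscle, and Kcnj3, a channel gene of the heart and brain opened by G proteins, had RYBP alone. The RYBP peak was 1531 bp at Kcnj2 and 1801 bp at Kcnj3, each over an annotated start. Kcnj1, Kcnj13, Kcnj14, Kcnj15 and Kcnj16 had no peak, among them the kidney channel gene Kcnj1.

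Two-pore domain channels carry leak currents, and 12 of 14 were marked in DDX5-/- cells and 12 in wild-type cells. Kcnk3, the gene of an acid-sensitive leak channel, had 16715 bp in DDX5-/- cells and 17520 bp in wild-type cells, with 4359 bp of RYBP. Kcnk12 (gene ID 210741, chromosome 17, 87745821 to 87797994) had 6327 bp in DDX5-/- cells and 10683 bp in wild-type cells. A RYBP peak of 3047 bp covered its start and a second one of 1947 bp lay near its far end, and H2AK119ub of both genotypes overlapped each. Kcnk15 had 5231 bp in DDX5-/- cells and 6949 bp in wild-type cells. All 11 members of the class marked in both genotypes had less covered length in DDX5-/- cells, beside 78.6% of all genes marked in both. Their ratios ran from 0.38 at Kcnk1 to 0.95 at Kcnk3, with a median of 0.75.

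Kcnk2, the gene of a stretch-sensitive channel, was the 1 member marked in both genotypes whose marks shared no base. It had 2527 bp in 4 peaks in DDX5-/- cells, 3303 bp in 3 peaks in wild-type cells and no RYBP. A wild-type peak of 1230 bp lay over 1 of its listed starts, and a DDX5-/- peak of 668 bp ended 7 bp from one. Kcnk18, a channel gene of sensory neurons, was marked in DDX5-/- cells alone, by peaks of 521 and 893 bp, the first 6697 bp from its start, without RYBP. Kcnk7 was marked in wild-type cells alone. Its single peak, 720 bp wide, reached 129 bp into the flank and also lay at the neighbouring gene Map3k11. Kcnk5 had no peak, and Kcnk4, Kcnk6, Kcnk9, Kcnk10, Kcnk13 and Kcnk16 were marked in both genotypes.

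Auxiliary subunits bind the pore subunits and tune them, and 8 of 17 were marked in DDX5-/- cells, 47.1% (26.2% to 69.0%), and 7 in wild-type cells, 41.2% (21.6% to 64.0%). RYBP was present at 7, 41.2% (21.6% to 64.0%), a share near the 37.6% of all genes. The intervals for H2AK119ub overlap those of every other class, and for wild-type cells this one includes the 27.9% of all genes. Kcnab2, a beta subunit of Shaker-type channels (chromosome 4, 152390744 to 152477549), was the most covered member of the family in wild-type cells and had the lowest ratio of those marked in both. It had 11114 bp in 12 peaks in DDX5-/- cells and 40611 bp in 27 peaks in wild-type cells, a ratio of 0.27, and 18.7% of the wild-type length was kept. Before its upstream start both genotypes had a peak that met the RYBP peak. In DDX5-/- cells it was 1602 bp wide and 1041 bp from the start. In wild-type cells it was 1724 bp wide and 943 bp from the start. After that start a further wild-type peak of 3702 bp, 251 bp away, also met the RYBP peak and overlapped no DDX5-/- peak. Within 2 kb of the listed starts of Kcnab2 the mark covered 960 bp in DDX5-/- cells and 5510 bp in wild-type cells. The inner start, whose promoter is printed above, had a peak of 1278 bp in wild-type cells alone. Kcnab2 lies next to Chd5 and Nphp4, and 8 of its peaks in the 3 libraries also lay at one of these genes.

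Kcnip1, a calcium-binding subunit of A-type channels, had 10856 bp in DDX5-/- cells and 14547 bp in wild-type cells, of which 23.1% was kept. Its relative Kcnip3 had 8400 bp in DDX5-/- cells and 11743 bp in wild-type cells. Kcnmb1 lies inside the interval of Kcnip1 and had no peak within 2 kb. Kcnmb4, the brain beta subunit of the large-conductance channel (gene ID 58802, chromosome 10, 116417861 to 116473859), was marked in DDX5-/- cells alone, by peaks of 597 and 1269 bp that lay 55592 and 45814 bp from its listed start. The RYBP peak at Kcnmb4, 1098 bp, lay over that start, so mark and RYBP did not meet. Kcnip2 was marked in DDX5-/- cells alone by 1 peak of 601 bp at its far end, without RYBP, and Kcne2 in wild-type cells alone by 1 peak of 864 bp, also without RYBP. Kcnip4 had RYBP alone, 1021 bp. Kcnab3, Kcne1 and Kcne3 were marked in both genotypes, and Kcnab1, Kcne1l, Kcne4, Kcnmb1, Kcnmb2, Kcnmb3 and Kcnrg had no peak.

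The amount of mark was compared at the 56 members marked in both genotypes, and members marked in 1 genotype are left out of the next 2 counts. Covered length was lower in DDX5-/- cells at 46 of them, 82.1%, and higher at 10. Of the 4466 genes marked in both, 78.6% had less in DDX5-/- cells. The median ratio was 0.74 over the members, against 0.72 over those 4466 genes. Covered length was halved or less at 10 members, 17.9% (10.0% to 29.8%), against 26.1% of all genes marked in both. Among them were Kcna7, Kcnab2, Kcne1, Kcnh2, Kcnh6, Kcnj6, Kcnj9, Kcnk1 and Kcnt1. It was doubled or more at 0 of the 56, against 2.87% of all genes marked in both, and the upper bound of the members' interval was 6.42%. The highest ratio was 1.93, at Kcns3. The 10 members with more in DDX5-/- cells included Kcna1, Kcna2, Kcna6, Kcnd2, Kcng3, Kcnj12, Kcnn4, Kcns2 and Kcns3, and 3 of the 10 lie on chromosome 6. The loss of covered length over the family was thus close to that of genes in general.

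Over all 93 windows the mark covered 396813 bp in DDX5-/- cells and 549759 bp in wild-type cells, a ratio of 0.72, against 0.67 over all genes. Of these, 298588 bp were covered in both, 98225 bp in DDX5-/- cells alone and 251171 bp in wild-type cells alone. The number of peaks changed less than their length, with 271 in DDX5-/- cells and 285 in wild-type cells. At 11 members DDX5-/- cells had more peaks and less covered length, as at Kcng4 and Kcnk3, which was not counted over all genes. The peaks were narrower in DDX5-/- cells, with a median of 1164 bp against 1499 bp in wild-type cells, as over all genes, where these medians were 1141.5 bp and 1433 bp. Whether the depth of the libraries takes part in this was not tested.

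Most DDX5-/- peaks over these genes lay on wild-type ones. Of the 271 DDX5-/- peaks, 202 overlapped a wild-type peak, 74.5%, against 71.3% of the DDX5-/- peaks over all genes. Of the 285 wild-type peaks, 179 overlapped a DDX5-/- peak, 62.8%, against 52.9%. Of the 89 RYBP peaks over members, 70 overlapped DDX5-/- H2AK119ub, 78.7%, and 73 overlapped wild-type H2AK119ub, 82.0%. Over all genes 40.8% of RYBP peaks overlapped DDX5-/- H2AK119ub and 46.7% wild-type H2AK119ub. RYBP peaks that lie on potassium channel genes thus mostly overlapped the mark of each genotype. Over all genes fewer than 1 in 2 did, for each genotype taken by itself.

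Positions relative to the start could be read for 69 members, with 94 starts in the RefSeq promoter table. Within 2 kb of a start, 41 of 69 had DDX5-/- H2AK119ub, 59.4% (47.6% to 70.2%), against 16.3% of all 17273 genes with a start in the table. Wild-type H2AK119ub was there at 42, 60.9% (49.1% to 71.5%), against 19.7%, and RYBP at 41, 59.4%, against 32.3%. Of RYBP peaks over these members, 73.8% lay within 2 kb of a start, while 37.9% of DDX5-/- and 35.6% of wild-type H2AK119ub peaks did. A further 45.8% of DDX5-/- and 49.5% of wild-type H2AK119ub peaks lay inside the gene, more than 2 kb from its ends and its listed starts. These shares of peaks by place were not computed over all genes.

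RYBP and the mark had their maxima at different distances from the start. The share of starts covered by RYBP was 43.6% at the start itself and was highest, at 45.7%, from 100 to 400 bp after it. The share covered by H2AK119ub was 24.5% at the start in DDX5-/- cells and 31.9% in wild-type cells. It was highest at 800 bp and again at 1200 bp after the start in DDX5-/- cells, at 37.2%, and at 900 bp in wild-type cells, at 45.7%. Over all genes RYBP was highest at the start itself, at 28.4%, and H2AK119ub at 900 bp after it in DDX5-/- cells, at 10.1%, and at 1000 bp in wild-type cells, at 13.3%.

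**Figure D3:**
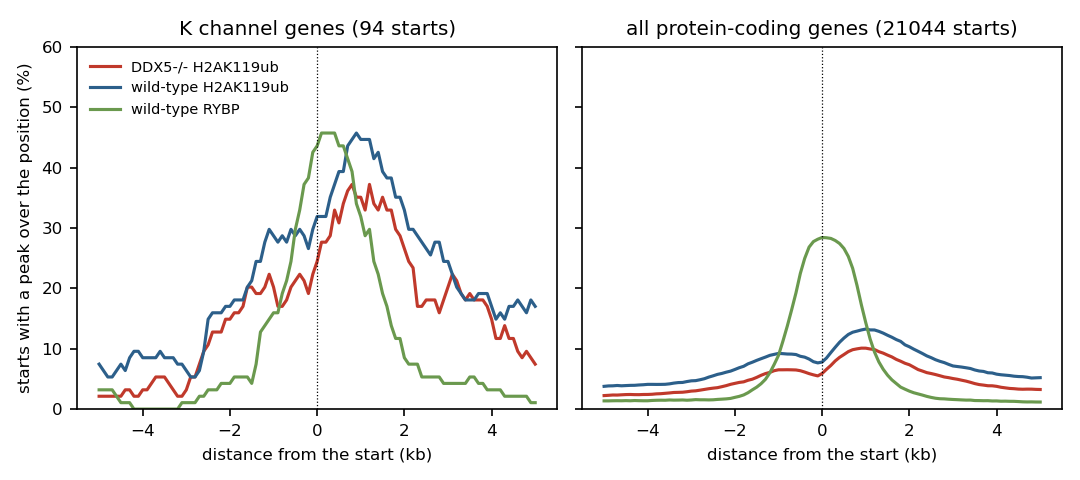
Share of annotated starts with a peak over each position (vertical axis, percent) by distance from the start in the direction of transcription (horizontal axis, kb), for 94 starts of potassium channel genes and 21044 starts of all protein-coding genes, 1 library per profile. RYBP is highest from 100 to 400 bp after the start over members and at the start over all genes, and H2AK119ub is highest at 800 to 1200 bp after it in both panels.

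Single genes differed in layout. At Kcna3 the mark flanked the start and RYBP spanned it, at Kcnc1 the DDX5-/- mark left a gap at the start that wild-type mark filled, and at Kcnj4 and Kcnk12 the mark ran over the start in both genotypes with RYBP. At Kcnn3 RYBP lay after the start, inside the mark. At Kcnj2 RYBP stood alone.

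**Figure D4:**
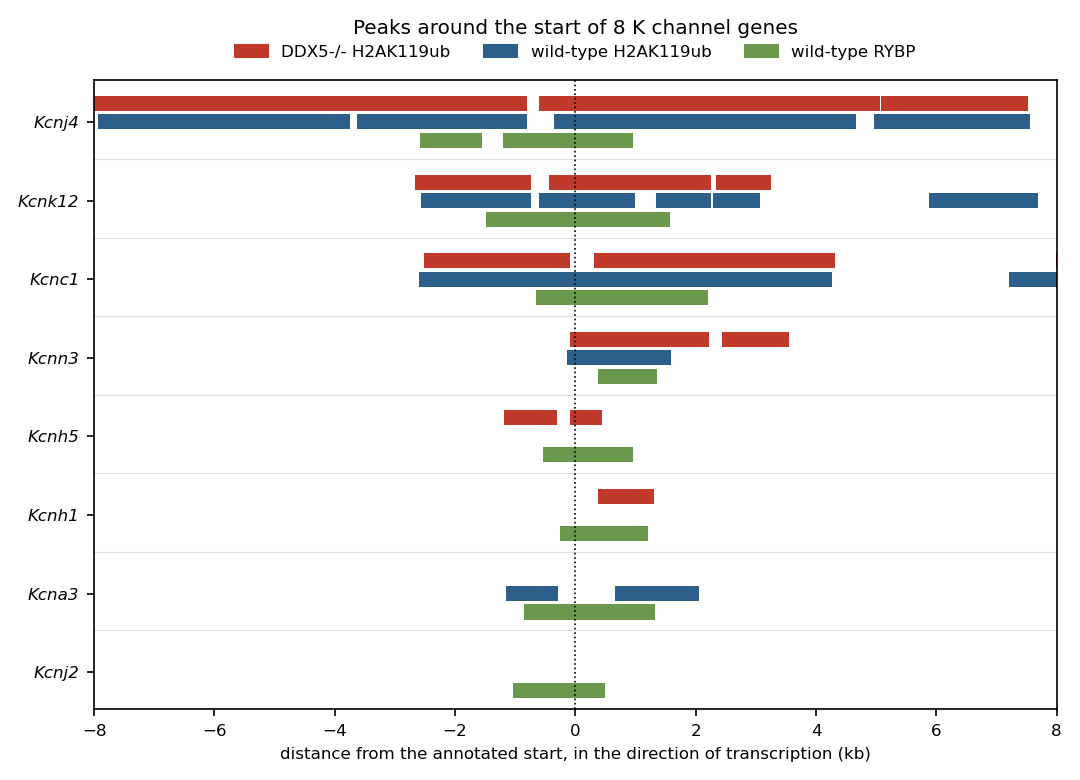
Peaks of DDX5-/- H2AK119ub, wild-type H2AK119ub and wild-type RYBP (bars, from top to bottom within each gene) around an annotated start of 8 potassium channel genes, with distance from the start in kb on the horizontal axis, 1 library per profile. Kcnj4, Kcnk12, Kcnc1 and Kcnn3 carry the mark in both genotypes, Kcnh5 and Kcnh1 in DDX5-/- cells alone, Kcna3 in wild-type cells alone, and Kcnj2 in neither.

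Promoters with RYBP were richer in CG. The 43 promoters of members with a RYBP peak had a median of 18 CG per 300 bases, and the 51 without had 6. Over all genes these medians were 25 and 7. With both RYBP and H2AK119ub of at least 1 genotype the members' median was 17 over 22 promoters, with RYBP only it was 20 over 21, and with H2AK119ub only it was 8.5 over 14. The 37 promoters with no peak had a median of 6. The groups overlapped, with 3 to 49 CG among promoters with RYBP only and 0 to 26 among those without any peak. Starts of 1 gene share its locus, so the promoters are not independent.

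**Figure D5:**
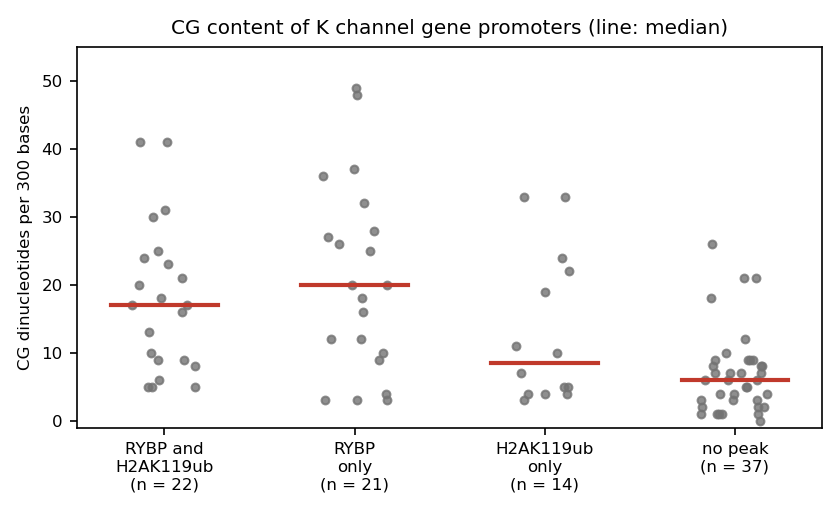
CG dinucleotides in the 300-base promoter (vertical axis) of 94 potassium channel gene starts, grouped by which peaks lie over those bases, with a line at the median of each group. Promoters with RYBP, with or without H2AK119ub, have medians of 17 and 20, and those without RYBP 8.5 and 6.

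A search for 4 short motifs on both strands found no large share of members. The E-box CACGTG was in 7 of the 94 promoters, 7.45%, against 7.91% of the 21044 promoters of all genes, and the E2F motif GCGGGAA in 4, 4.26%, against 6.02%. The parts of the REST site were rare: TTCAGCACC was in 1 promoter, at Kcnh6, against 0.418% of all, and GGACAGCGC in 1, at Kcnj4, against 0.542%. These last motifs are the left and the right part of 1 longer site, and a match describes the letters only.

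Partner genes without a Kcn symbol encode sulphonylurea receptors and other subunits of these channels. They were marked at 5 of 9 in DDX5-/- cells and at the same 5 in wild-type cells, 55.6% (26.7% to 81.1%). The shares of all genes were 23.6% in DDX5-/- cells and 27.9% in wild-type cells, and the interval includes the latter. RYBP was present at 4 of the 9, 44.4% (18.9% to 73.3%), beside 37.6% of all genes. Abcc8, the sulphonylurea receptor gene beside Kcnj11, had 8078 bp in DDX5-/- cells and 27228 bp in wild-type cells, and no RYBP. Lrrc26 had 4939 bp in DDX5-/- cells and 4809 bp in wild-type cells. Of 44 genes for voltage-gated sodium and calcium channels and for HCN channels, 32 were marked in DDX5-/- cells, 72.7% (58.2% to 83.7%), and 34 in wild-type cells, 77.3% (63.0% to 87.2%), beside 23.6% and 27.9% of all genes. RYBP was present at 29, 65.9% (51.1% to 78.1%), beside 37.6%. All 3 intervals of these 44 genes include the shares of the potassium channel genes, so frequent marking was not particular to potassium channels. Cacng6, with 2677 bp, and Cacnb1, with 622 bp, were marked in wild-type cells alone and 0 in DDX5-/- cells alone. Cacna1c, on chromosome 6, had 94274 bp in DDX5-/- cells and 38699 bp in wild-type cells.

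Peaks of close neighbours were few. Of the 67 members with H2AK119ub in at least 1 genotype, 14 had an H2AK119ub peak that also lay over another protein-coding gene or its flanks. Kcnk7 was the 1 member for which this held for every such peak. How often other genes share a peak in this way was not counted.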

How the data were processed

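Libraries were grouped by sample title: 1 of H2AK119ub per genotype and 1 of RYBP from wild-type cells. The authors deposited 1 peak list per library, so no list pools libraries. The deposited score column is 0 for every peak and was not used. The submitters' processing notes name Bowtie2 2.2.5, MACS 1.4 and the build mm10, with roles, threshold and use of inputs not given in the sources used here. A library with fewer reads or weaker enrichment gives fewer and narrower peaks, and peak positions alone cannot separate this from a difference between genotypes.

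Genes and promoters came from RefSeq tables of GRCm38.p6, the assembly behind mm10, and coordinates are counted from 1. Peaks were intersected with gene windows in Python 3.11.15 with pandas 2.3.3, and Wilson intervals came from statsmodels 0.14.6. The counting was tested on simulated peaks. Covered length is the sequence of the window under peaks, and a change was counted at a ratio of 0.5 or less or 2 or more. Starts were listed for 69 of 93 members, and a gene can have starts that the table lacks. Wild-type covered length was split at 2 and 5 kb.

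Members and lists were chosen with earlier results of these data known. Genes given in full were those marked in DDX5-/- cells alone, up to 3 per class marked in wild-type cells alone and in both by covered length, up to 2 per class with RYBP alone, and the 3 with the widest peak per library. Others named, the promoters printed, the covered-length classes and the profile around starts were chosen after values were seen. A few genes that the rule selects are not reported here. Alternative windows, overlaps and peak sets were run.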

Additional observations from a re-analysis of the deposited data

How the results depend on the processing

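Across 9 alternatives for 8 results, 66 of 72 values lay within 1.5 times the reported value. The ratio of covered length over members, DDX5-/- over wild type, ran from 0.61 to 0.83 and so stayed below 1. The other results are counts, and their order between the genotypes was not stable. Members marked in DDX5-/- cells alone and in wild-type cells alone numbered 6 and 5 as reported. They numbered 2 and 6 with peaks of at least 1 kb, and 4 and 5 around listed starts. Marked members numbered 62 in DDX5-/- cells and 61 in wild-type cells as reported, and 53 and 57 with peaks of at least 1 kb. With windows of 2 kb around listed starts, which 69 members have, 41 were marked in DDX5-/- cells, 37 in both genotypes, 41 had RYBP and 5 had RYBP without the mark. These counts are lower by construction, since fewer genes and less sequence were examined. With peaks of at least 1 kb, 2 members, Kcnmb4 and Kcns3, were marked in DDX5-/- cells alone, in place of 6, so that Kcnh1, Kcnh5, Kcnq5, Kcnip2 and Kcnk18 rest on peaks under 1 kb. With equal numbers of the widest H2AK119ub peaks, 2 members, Kcna3 and Kcnv2, were marked in wild-type cells alone, in place of 5. Kcna3 was marked in wild-type cells alone under all 9. No paired analysis was possible because each group has 1 library and the labels give no replicate numbers. Read depth is unknown, so the lack of a peak does not show that a mark is absent.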
